A study of Mus musculus with 24 samples.

Results

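The ATP-binding cassette (ABC) transporters are described here in Ku70-/- mouse embryonic fibroblasts (MEFs), which were left untreated or received the oxidizing agent KBrO3, bisphenol A (BPA) or both. The members are all probes whose gene symbol on the Agilent whole mouse genome array is Abc, a subfamily letter from a to g and a number, with or without a closing letter. This rule uses no measured value, and it found 93 of 41174 probes, which carry 49 of 27962 gene symbols.

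There are 24 one-color arrays in 8 groups of 3, run as 2 sets. The first set holds untreated cells, labelled 4 hr, with cells 4 and 24 hr after KBrO3 (20 mM for 1 hr) and cells 4 and 24 hr after co-exposure. For co-exposure the cells had 1 hr in 150 µM BPA and 1 hr in both agents, and BPA then stayed in the medium. The second set holds its own untreated cells, with no time in their label, and cells in 150 µM BPA alone, labelled 4 and 24 hr and given 1 hr more in the Methods. All groups, the untreated ones included, lack Ku70, a protein of nonhomologous end joining. They are 1 cell line. No untreated group was labelled 24 hr, so culture time and treatment cannot be told apart in comparisons of 24-hr cells with untreated cells. Each array was compared only with arrays of its own set.

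ABC proteins share a fold that binds and hydrolyses ATP. Most members use it to move lipids, drugs, conjugates, peptides or metal complexes across the plasma membrane or the membranes of mitochondria, lysosomes and peroxisomes. The members of subfamilies E and F have no membrane part and act in translation. Several subfamily C members export glutathione conjugates, a route by which cells dispose of the products of oxidative damage and of drugs.

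Levels are given as log2 of the processed signal minus the 75th percentile of the array, so that 0 is that percentile, and levels of different genes were not compared. Each gene is represented by its brightest probe, and was tested in a set when that probe was well above background on all arrays of at least 1 group of the set. This left 31 of the 49 genes in set 1 (the first) and 39 in set 2, against 18436 and 21446 of all 27962 symbols. The 18 genes not tested in the first set were Abca4, Abca8b, Abca9, Abca13, Abca14, Abca15, Abca16, Abca17, Abcb1a, Abcb5, Abcc2, Abcc6, Abcc9, Abcc10, Abcc12, Abcd2, Abcg1 and Abcg3. A gene was called altered at a Bonferroni-adjusted p below 0.01 and a change beyond 1.5-fold, limits taken from the study's methods. Here the p-values came from limma and were adjusted over the probes tested in a set (27298 of 41174 in the first and 31791 in the second). The adjusted p-values printed for single genes are two-sided limma p-values with Benjamini-Hochberg adjustment over all probes tested. Because the RNA came from whole cultures, fewer cells expressing a gene and less RNA per cell cannot be told apart.

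The cells carried fibroblast markers, since 12 of 12 were above background on the untreated arrays of both sets. Markers of other cell types were read in part. On the untreated arrays of the first set, Krt18 and Krt19 of 4 epithelial, Cd14 and Cd68 of 5 leukocyte and Tek of 4 endothelial markers were above background on all 3, Emr1 and Myod1 on 1, and Cdh1, Krt8, Ptprc, Itgam, Pecam1, Cdh5, Kdr, Des, Myh1, Myog, Apoa1 and Ttr on none. On all untreated arrays of the second set, 4 of 4 epithelial, 3 of 5 leukocyte, 3 of 4 endothelial, 3 of 4 skeletal muscle and 0 of 2 hepatocyte markers were above background. The share of spots well above background ran from 57.7% to 68.1% over the 15 arrays of the first set and from 76.4% to 79.4% over the 9 arrays of the second. The median residual SD over all probes was 0.107 log2 units for the first set against 0.341 for the second, so a change of a given size was harder to call under BPA alone.

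At 4 hr after KBrO3 alone, 14 of the 31 tested genes were altered (45.2%, against 29.3% of all tested genes), with 6 higher and 8 lower. The rise was led by Abcf2, Abcc1, Abce1, Abcf1, Abcc4 and Abcb4, and the fall by Abca1 and Abcc3, with Abcc5, Abcb8, Abcd3, Abcd4 and Abca7 also lower. Of all tested genes, 13.8% rose and 15.5% fell. After co-exposure, 14 of 31 were also altered at 4 hr (45.2%, against 33.3% of all), with 7 higher and 7 lower, against 15.3% and 18% of all. The median change of the 31 genes was 0.10 for KBrO3 alone and 0.41 for co-exposure, and 0.05 over all tested genes in each case. Leaving out 1 array at a time gave 9 to 10 altered members for KBrO3 alone. With normexp background correction, with only the groups compared in the fit or with all 24 arrays in 1 fit, the counts were 2 to 4 for KBrO3 and 3 to 7 for co-exposure.

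The untreated arrays of the first set lay on slides 1 and 2, those of KBrO3 at 4 hr on slide 2, those of co-exposure at 4 hr on slide 3, those of KBrO3 at 24 hr on slides 3 and 4 and those of co-exposure at 24 hr on slides 4 and 5. Co-exposure at 4 hr shared no slide with the untreated arrays or with KBrO3 at 4 hr, and the 24-hr groups shared none with the untreated arrays. No value within a slide could therefore be had for these comparisons, and a difference between slides was not tested apart from treatment. With the slide as a random block, 9 members were altered at 4 hr after co-exposure. Slide 2 held 1 untreated array and the 3 of KBrO3 at 4 hr, which are also part of the comparison above. Within it, with no test, Abcf2 differed by 1.71, Abcc1 by 1.43, Abca1 by -1.92 and Abcc3 by -1.13. In the second set, with slides numbered apart, the untreated arrays lay on slides 1, 2 and 3. Those of BPA at 4 hr lay on slides 1 and 4 and those at 24 hr on slides 2, 3 and 5. The 2 BPA times thus shared no slide with each other, and each shared some with the untreated arrays.

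At 24 hr, 7 of 31 genes were altered after KBrO3 alone (22.6%, against 17.8% of all), with 4 higher (against 7.09% of all) and 3 lower (against 10.7%). Co-exposure altered 7 as well (22.6%, against 21.5% of all), again 4 higher (against 9.49%) and 3 lower (against 12%), which is a share close to that of all genes. Median changes were 0.09 and -0.00, against -0.07 and -0.11 over all tested genes. Beside these 24-hr results, the summed level of the 12 fibroblast markers on a linear scale fell from 1966-2078 on the untreated arrays to 766-857 after KBrO3 and 541-620 after co-exposure, with 10 and 11 of the 12 altered and lower, and the part of that shift in the changes of the transporters was not tested. At 4 hr, Pdgfrb was altered and lower after KBrO3, and Pdgfrb and Lum after co-exposure. Of the tested markers of other cell types, Cd68 was higher in all 4 comparisons with untreated cells (by 2.25, 1.66, 1.16 and 1.87), Kdr, above background on 0 of 3 untreated arrays and 3 of 3 in each treated group, was called higher in the first 3 with no fold given, and Krt19 was lower at 24 hr after co-exposure (by -1.80). Their part was not tested either.

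**Figure D1:**
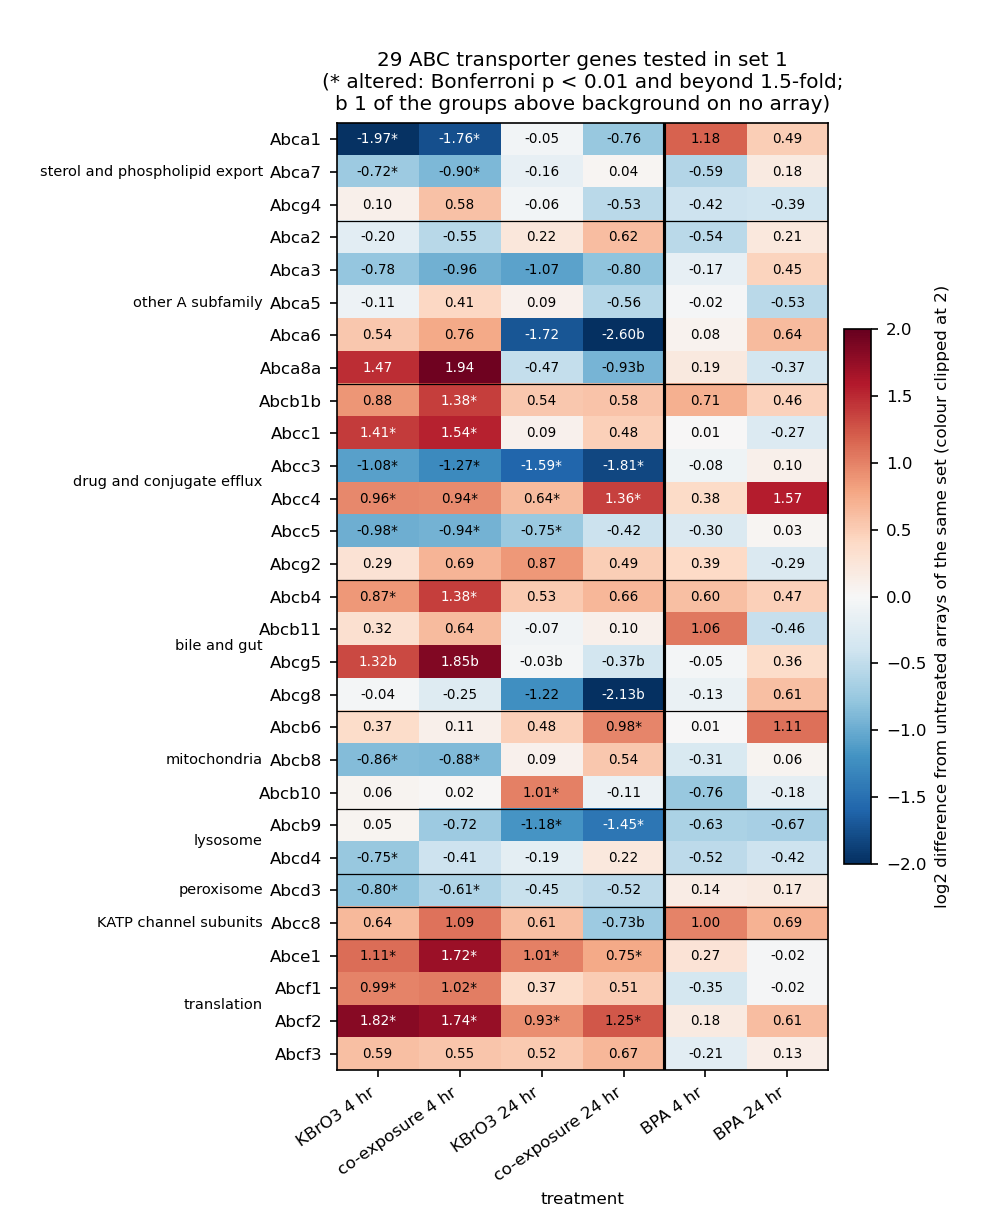
Log2 difference from the untreated arrays of the same set for 29 of the ABC transporter genes tested in the first set (rows, grouped by role) under 6 treatments (columns), with 3 arrays in each group. Asterisks mark altered genes and b marks changes in which 1 of the groups was above background on no array; the 4-hr columns of KBrO3 and co-exposure hold 13 altered genes each and the 24-hr columns 7 and 6, while the BPA columns hold none.

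The 4 counts of 14, 14, 7 and 7 became 4, 7, 0 and 3 with normexp background correction, and 3, 3, 0 and 0 when only the groups compared were fitted.

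With the looser rule of a Benjamini-Hochberg adjusted p below 0.05 and 1.5-fold, 19 of 31 genes passed at 4 hr after KBrO3 (against 44.3% of all), 21 at 4 hr after co-exposure (against 54.5%), 11 at 24 hr after KBrO3 (against 33.2%) and 14 at 24 hr after co-exposure (against 39.6%). From 4 to 24 hr, 11 passed after KBrO3 (against 48%) and 19 after co-exposure (against 57.4%). For the effect of adding BPA, 2 passed at 4 hr (against 21%), 5 at 24 hr (against 14.2%), and 10 when the effects at the 2 times were compared (against 28%).

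Among the members that act in translation, Abce1, Abcf1 and Abcf2 rose at 4 hr after both treatments. Abce1 splits ribosomes after termination so that the subunits can be reused, and Abcf1, Abcf2 and Abcf3 are its soluble relatives, of which Abcf1 is known to bind an initiation factor. Of these 4 genes, 3 were higher at 4 hr after each treatment (against 13.8% of all after KBrO3 and 15.3% after co-exposure), 2, Abce1 and Abcf2, were higher at 24 hr after each (against 7.09% and 9.49%), and none was lower. The probe of Abcf2 is shown because it lies in the part of the transcript that codes for the shared fold. Capitals mark the segment coding for the Walker B motif, found as 4 hydrophobic residues followed by an aspartate and a glutamate in a forward frame. Such a segment occurs in 1 of the 93 member probes and in 17 of all 41174. The array annotation (mm7) places the probe at chr5:23607055-23607114 on the minus strand.
Abcf2 A_52_P445828: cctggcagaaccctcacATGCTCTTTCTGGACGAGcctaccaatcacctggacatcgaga

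Abcf2 read 1.64, 1.54 and 1.76 on the untreated arrays, 3.49, 3.47 and 3.43 at 4 hr after KBrO3 and 3.34, 3.45 and 3.38 at 4 hr after co-exposure. The 24-hr readings were 2.52, 2.54 and 2.66 after KBrO3 and 3.03, 2.97 and 2.69 after co-exposure. All 12 treated arrays lay above the 3 untreated ones. The change was 1.82 ± 0.08 (SE, n = 3 per group, 3.52-fold, adjusted p = 1.11e-09 in limma) at 4 hr after KBrO3 and 1.25 ± 0.08 (2.38-fold, adjusted p = 5.55e-08) at 24 hr after co-exposure.

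Abce1 read 2.44, 2.55 and 2.56 on the untreated arrays, 3.59, 3.64 and 3.65 at 4 hr after KBrO3 and 4.27, 4.15 and 4.28 at 4 hr after co-exposure. Its 24-hr values were 3.50, 3.58 and 3.52 after KBrO3 and 3.26, 3.16 and 3.39 after co-exposure. The highest arrays were those of co-exposure at 4 hr, and no treated array overlapped the untreated ones. The change at 4 hr was 1.11 ± 0.06 (2.16-fold) after KBrO3 and 1.72 ± 0.06 (3.29-fold, adjusted p = 7.03e-11) after co-exposure. Co-exposure exceeded KBrO3 alone by 0.61 ± 0.06 at 4 hr (1.52-fold, adjusted p = 6.93e-06), which missed the Bonferroni limit, with a Bonferroni-adjusted p of 0.0126 in limma.

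Abcf1 read between 3.70 and 3.79 on the untreated arrays, between 4.72 and 4.76 at 4 hr after KBrO3 and between 4.75 and 4.79 at 4 hr after co-exposure. These are rises of 0.99 ± 0.05 and 1.02 ± 0.05, both altered. At 24 hr the differences of 0.37 and 0.51 did not reach 1.5-fold, while another Abcf1 probe was altered after co-exposure (0.89 ± 0.08). Abcf3 was never called altered, with differences of 0.59, 0.55, 0.52 and 0.67 in the 4 comparisons with the untreated arrays, and its second probe gave -0.016 in the last.

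Most tested partners in ribosome recycling and translation termination were higher at 4 hr too. Of 7 tested genes of a partner list, 5 were higher at 4 hr in KBrO3-treated cells (against 13.8% of all) and 5 in co-exposed cells (against 15.3%), with none lower (Eif2ak4, Eif2s1, Etf1, Gspt1 and Pelo each time). The release factor Etf1 rose by 2.30 after KBrO3 and by 2.71 after co-exposure, and Pelo, which with Hbs1l rescues stalled ribosomes, by 0.90 and 0.71. At 24 hr, 1 of the 7 was higher after KBrO3 (against 7.09%) and 0 after co-exposure (against 9.49%).

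Because 3 of these 4 genes were higher at 4 hr under both treatments, the sequences just upstream of their starts are shown, 5′ to 3′ on the strand of the gene and ending at the base before the start. They come from a table of RefSeq promoters on GRCm38.p6, in which 37 of the 49 member genes were matched. Capitals mark the letters TGACG or, read on the other strand, CGTCA, and in Abce1 the longer TGACGTCA that contains them. The windows are chr8:79711741-79711840 (minus strand), chr17:35969751-35969950 (minus), chr5:24577468-24577567 (minus) and chr16:20548503-20548602 (plus).
Abce1 upstream: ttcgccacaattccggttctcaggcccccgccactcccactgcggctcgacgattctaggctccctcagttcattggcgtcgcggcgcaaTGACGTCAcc
Abcf1 upstream: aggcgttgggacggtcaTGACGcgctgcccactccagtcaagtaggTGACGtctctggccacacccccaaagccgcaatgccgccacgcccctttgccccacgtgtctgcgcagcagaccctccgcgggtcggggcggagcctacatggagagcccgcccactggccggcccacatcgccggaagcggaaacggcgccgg
Abcf2 upstream: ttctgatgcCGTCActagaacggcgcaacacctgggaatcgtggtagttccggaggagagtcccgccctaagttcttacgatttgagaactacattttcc
Abcf3 upstream: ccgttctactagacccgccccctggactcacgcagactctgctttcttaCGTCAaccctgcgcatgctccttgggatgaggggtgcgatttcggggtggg

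TGACG was searched on both strands in 32851 promoter windows of 300 bases and was found in 20.8% of them. It was found in all 4 of these genes and in 2 of the 33 other members with an entry, Abcd3 and Abcg2. Members are counted as genes with the motif in any of their windows, and some have several windows. The counts of members and the shares of windows therefore differ in unit. TGACGTCA, which counts as TGACG as well, was in 1.79% of all windows and in Abce1 and Abcg2 among the members. CACGTG was in 7.15% of all windows and in 6 of 37 members, among them Abcf1. These motifs were chosen after the sequences were seen, and a match describes letters and not a site of binding.

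Among drug and conjugate exporters of the plasma membrane, some were higher and others lower. Of 6 tested genes, 2 were higher and 2 lower at 4 hr after KBrO3 (against 13.8% and 15.5% of all), 3 higher and 2 lower at 4 hr after co-exposure (against 15.3% and 18%), 1 higher and 2 lower at 24 hr after KBrO3 (against 7.09% and 10.7%), and 1 higher and 1 lower at 24 hr after co-exposure (against 9.49% and 12%). The subfamily C members divided, with Abcc1 and Abcc4 higher and Abcc3 and Abcc5 lower.

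Abcc1 encodes MRP1, an exporter of glutathione conjugates and of oxidized glutathione. It read 2.88, 2.92 and 2.87 on the untreated arrays, 4.27, 4.31 and 4.31 at 4 hr after KBrO3 and 4.47, 4.35 and 4.45 at 4 hr after co-exposure. It read 2.87, 3.08 and 3.01 at 24 hr after KBrO3, a range that overlaps the untreated arrays, and 3.41, 3.35 and 3.35 after co-exposure, which does not. The rise at 4 hr was 1.41 ± 0.05 after KBrO3 (2.65-fold, adjusted p = 1.83e-10) and 1.54 ± 0.05 after co-exposure (2.90-fold, adjusted p = 6.57e-11). KBrO3-treated cells fell by 1.31 from 4 to 24 hr. The other 2 tested Abcc1 probes changed more, by 1.95 and 1.97 at 4 hr after KBrO3, and did not overlap the untreated arrays at 24 hr. There they differed by 0.57 and 0.50 after KBrO3 and were altered after co-exposure, by 1.10 and 1.02, where the brightest probe differed by 0.48.

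Abcc4 encodes MRP4, which exports cyclic nucleotides and organic anion conjugates, and was higher in all 4 comparisons of the first set with untreated cells. It read 0.60, 0.57 and 0.47 on the untreated arrays, 1.52, 1.53 and 1.48 at 4 hr after KBrO3 and 1.49, 1.48 and 1.51 at 4 hr after co-exposure. By 24 hr the values were 1.27, 1.15 and 1.12 after KBrO3 and 1.90, 1.96 and 1.88 after co-exposure. The 4-hr groups overlapped each other, whereas the 24-hr groups were apart. The changes from untreated cells were 0.96, 0.94, 0.64 and 1.36 (each ± 0.05), the last a 2.57-fold rise (adjusted p = 1.51e-10).

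Abcc3 encodes MRP3, an exporter of bile acid and glucuronide conjugates, and was lower in the same 4 comparisons. It read -1.08, -1.26 and -1.10 on the untreated arrays, -2.25, -2.33 and -2.10 at 4 hr after KBrO3 and -2.36, -2.41 and -2.49 at 4 hr after co-exposure. The 24-hr arrays read -2.61, -2.77 and -2.83 after KBrO3 and -2.91, -2.81 and -3.16 after co-exposure. No treated array reached the untreated range, and the lowest readings were at 24 hr after co-exposure, a change of -1.81 ± 0.10 (3.52-fold lower, adjusted p = 5.31e-09).

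Abcc5, which encodes MRP5, read 2.77, 2.79 and 2.80 on the untreated arrays, 1.80, 1.81 and 1.80 at 4 hr after KBrO3 and 1.84, 1.81 and 1.89 at 4 hr after co-exposure. It read 2.03, 2.08 and 2.01 at 24 hr after KBrO3 and 2.36, 2.37 and 2.35 at 24 hr after co-exposure. Replicates differed by less than 0.1 in each group, and the changes were -0.98, -0.94, -0.75 and -0.42 (each ± 0.03), of which the last was below 1.5-fold. The other 2 tested Abcc5 probes were not altered at 4 hr, with differences of -0.37 and -1.51 after KBrO3 and -0.42 and -0.58 after co-exposure. At 24 hr after co-exposure they differed by -0.31 and 0.24.

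Abcg2 encodes the breast cancer resistance protein. It was not altered at the Bonferroni limit, and read between -0.43 and -0.40 on the untreated arrays against 0.33 to 0.55 at 24 hr after KBrO3, a difference of 0.87 ± 0.09 (1.82-fold, adjusted p = 3.81e-06). Another Abcg2 probe was altered there (0.81 ± 0.06).

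Genes that make, use or degrade glutathione, which several of these exporters carry, were counted as partners, with 9 transferases and Nqo1 among them. Of 17 tested, 12 were higher and 1 lower at 4 hr after KBrO3 (against 13.8% and 15.5% of all), 10 higher and 2 lower at 4 hr after co-exposure (against 15.3% and 18%), 6 higher and 4 lower at 24 hr after KBrO3 (against 7.09% and 10.7%), and 11 higher and 2 lower at 24 hr after co-exposure (against 9.49% and 12%). Their median changes were 1.09, 1.57, 0.26 and 1.55. Gclc, the catalytic subunit of the enzyme that starts glutathione synthesis, rose by 5.30 at 4 hr after KBrO3, and Slc7a11, which imports cystine, by 5.04. Of 7 tested organic anion uptake carriers, 2 were higher and 1 lower at 4 hr after each treatment. The shares of all genes were 13.8% and 15.5% after KBrO3 and 15.3% and 18% after co-exposure. At 24 hr after KBrO3, 0 were higher and 2 lower (Slco2b1 and Slco3a1, against 7.09% and 10.7%). At 24 hr after co-exposure, 0 were higher and 3 lower (Slco2b1, Slco3a1 and Slco4a1, against 9.49% and 12%).

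**Figure D2:**
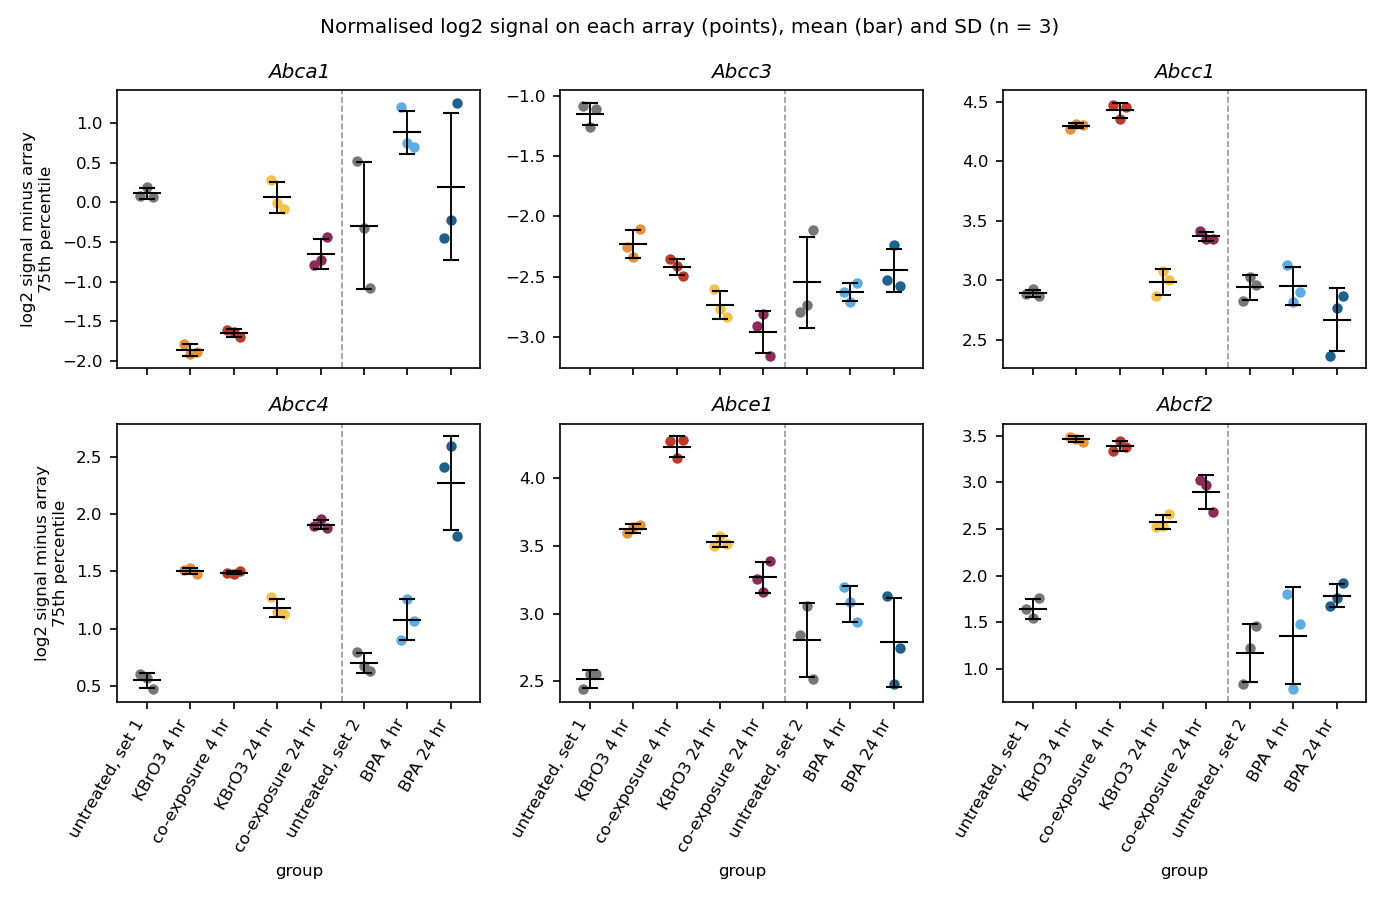
Normalized log2 signal (vertical axis) of Abca1, Abcc3, Abcc1, Abcc4, Abce1 and Abcf2 on each array, by group (horizontal axis), with 1 point per array, a bar for the mean and whiskers for the SD of the 3 arrays, and a dashed line between the 2 sets. Abcc1, Abcc4, Abce1 and Abcf2 are above the untreated arrays of set 1 at 4 hr under both treatments, and Abca1 and Abcc3 are below them.

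Abcb1b encodes 1 of the mouse P-glycoproteins, which export many drugs, and Abcb4 a relative that flips phosphatidylcholine into bile. RefSeq (GRCm38.p6) lists Abcb1a, Abcb1b and Abcb4 as 3 neighbouring protein-coding genes on chromosome 5. Abcb1b read 0.85, 0.96 and 0.96 on the untreated arrays, 1.76, 1.81 and 1.87 at 4 hr after KBrO3 and 2.33, 2.15 and 2.45 at 4 hr after co-exposure. Abcb4 read 0.52, 0.61 and 0.60, then 1.40, 1.46 and 1.48, and then 2.00, 1.80 and 2.06 on the same arrays. For both genes the co-exposure arrays lay above the KBrO3 arrays and those above the untreated ones.

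The changes of Abcb1b were 0.88 ± 0.09 and 1.38 ± 0.09 at 4 hr (adjusted p = 2.68e-08 after co-exposure), and those of Abcb4 were 0.87 ± 0.08 and 1.38 ± 0.08 (adjusted p = 9.91e-09 after co-exposure). Abcb4 was altered after both treatments and the brightest probe of Abcb1b after co-exposure, since its Bonferroni-adjusted p after KBrO3 missed the limit. A second Abcb1b probe, above background on 3 of 3 untreated arrays, differed by 0.80 ± 0.10 after KBrO3 (not altered) and was altered by 1.35 ± 0.10 after co-exposure. The dimmest, above background on 2 of 3, was altered after both, by 1.82 ± 0.08 and 2.18 ± 0.08. At 24 hr, the differences were 0.54 and 0.58 for Abcb1b and 0.53 and 0.66 for Abcb4, none altered.

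Array by array, the change of the Abcb4 probe from its own untreated mean differed from that of the Abcb1b probe by -0.154 to 0.116 over the 24 arrays. The second Abcb4 probe was above background on 0 of 24 arrays, and Abcb1a was not tested in the first set. The sequences of these probes are shown because the reading of Abcb4 rests on 1 of its probes. Capitals mark the bases that match where the end of the Abcb4 probe (bases 43 to 60) is laid on the start of the Abcb1b probe (bases 1 to 18), of which the first 26 bases are given. There, 13 of 18 bases match and the longest shared run is 7 bases. In mm7 the probes lie at chr5:8996752-8996811, chr5:8978600-8978659 and chr5:8903569-8903628, all on the plus strand. Whether Abcb1b transcripts hybridize to the Abcb4 probe was not tested.
Abcb4 A_51_P249118: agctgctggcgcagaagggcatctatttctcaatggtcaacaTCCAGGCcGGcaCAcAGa
Abcb4 A_52_P223194: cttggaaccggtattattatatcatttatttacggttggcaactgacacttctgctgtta
Abcb1b A_51_P245368: TCCAGGCtGGagCAaAGcgctcatga

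**Figure D3:**
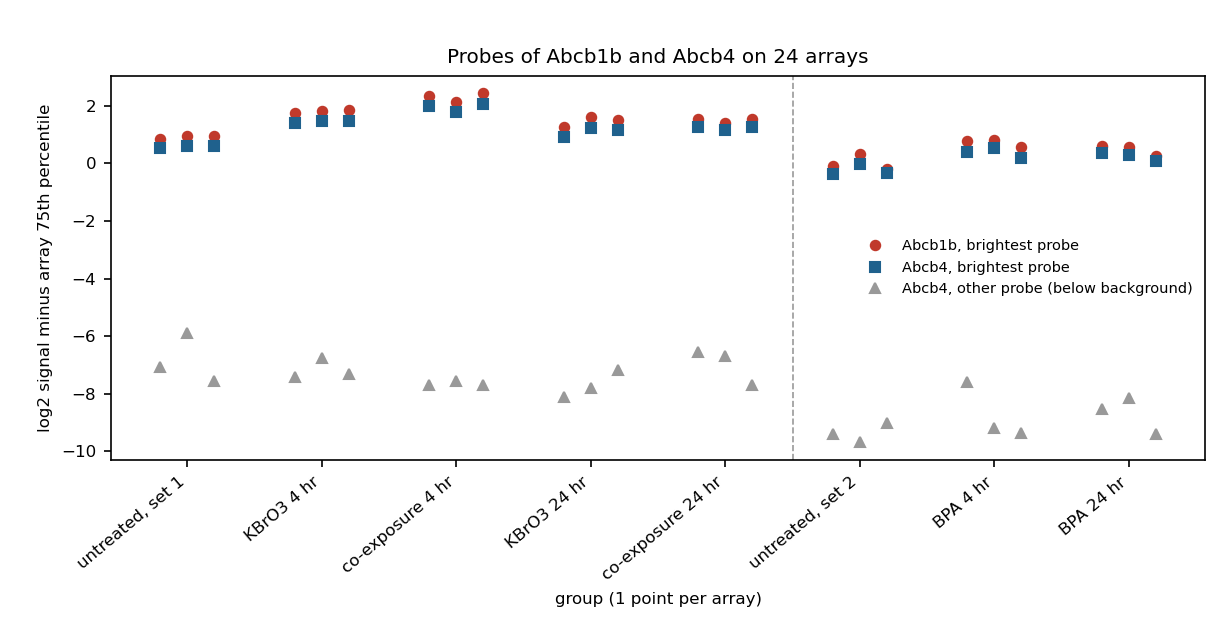
Log2 signal minus the 75th percentile of the array (vertical axis) by group (horizontal axis), with 1 point per array, for the brightest probes of Abcb1b (circles) and Abcb4 (squares) and for the second Abcb4 probe (triangles), with a dashed line between the 2 sets. The first 2 probes move together, with changes from untreated cells within -0.154 to 0.116 of each other on the 24 arrays, while the second Abcb4 probe was above background on 0 of them.

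Of 3 tested sterol and phospholipid exporters, 2 fell at 4 hr (against 15.5% of all after KBrO3 and 18% after co-exposure). Abca1 moves cholesterol and phospholipid to apolipoproteins and Abca7 is a related lipid exporter, and both were lower at that time under either treatment, while Abcg4, the other tested sterol exporter, was not altered. Neither was altered at 24 hr.

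Abca1 read 0.08, 0.20 and 0.06 on the untreated arrays, -1.78, -1.92 and -1.88 at 4 hr after KBrO3 and -1.61, -1.63 and -1.70 at 4 hr after co-exposure. At 24 hr it read 0.28, -0.00 and -0.09 after KBrO3, which spans the untreated range, and -0.79, -0.73 and -0.43 after co-exposure, which lies below it. The 4-hr changes were -1.97 ± 0.10 (3.92-fold lower, adjusted p = 3.25e-09) and -1.76 ± 0.10 (3.39-fold lower, adjusted p = 8.02e-09). KBrO3-treated cells rose by 1.92 from 4 to 24 hr, the largest rise of a member in that comparison. Under BPA alone the 3 arrays at 4 hr read 1.20, 0.75 and 0.70, above untreated values of 0.52, -0.32 and -1.08, a difference of 1.18 ± 0.50 that did not pass the test (adjusted p = 0.244). Within the slide of that set that held 2 of these BPA arrays and 1 untreated array, Abca1 differed by 0.43, with no test. The first 30 bases of its probe, at chr4:53044891-53044950 on the minus strand of mm7, identify the stretch that was read.
Abca1 A_52_P665675: gttgcatccctttttgtagaacatttatat

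Abca7 read 3.59, 3.50 and 3.54 on the untreated arrays, 2.83, 2.81 and 2.83 at 4 hr after KBrO3 and 2.68, 2.60 and 2.64 at 4 hr after co-exposure. The treated arrays did not overlap the untreated ones, with changes of -0.72 ± 0.07 and -0.90 ± 0.07. Among 11 tested genes of the liver X receptor and cholesterol efflux list, 1 was higher and 2 lower at 4 hr after KBrO3 (against 13.8% and 15.5% of all), and 2 higher and 2 lower after co-exposure (against 15.3% and 18%), shares close to those of all genes. Srebf1 was lower and Apoe, which accepts the exported lipid, was higher both times.

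Of 5 other tested members of subfamily A, which carry lipids in several organs, none was altered against untreated cells by its brightest probe, and another Abca2 probe was altered at 24 hr after co-exposure (0.84 ± 0.07). Abca3, which loads surfactant lipid, read between -0.12 and 0.02 on the untreated arrays and between -1.36 and -0.63 on the 24-hr arrays of both treatments, but a second Abca3 probe differed by 0.12 at 24 hr after co-exposure. Abca6, Abca8a, Abcg5, Abcg8 and Abcc8 were near background in the first set, and values for them are bounds where a group was above background on no array. Abcg5, which exports plant sterols, was above background on no untreated array of the first set, on 1 of 3 at 4 hr after KBrO3 and on 3 of 3 at 4 hr after co-exposure, the group through which it was tested. It was at least 2.13-fold higher in those co-exposed cells, as a ratio to the lowest signal called above background, and was not altered. With normexp background correction its difference was -0.89 at 4 hr after KBrO3 and -0.78 after co-exposure, in comparisons where that correction moved the median of all genes by -0.47 and -0.46.

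Among the members of mitochondria and peroxisomes, Abcb8 and Abcd3 fell at 4 hr after KBrO3. Abcb8, an exporter of the mitochondrial inner membrane, read -1.09, -1.21 and -1.01 on the untreated arrays, -1.98, -1.97 and -1.93 at 4 hr after KBrO3 and -1.99, -1.90 and -2.05 after co-exposure, which are changes of -0.86 ± 0.08 and -0.88 ± 0.08. At 24 hr after co-exposure it read -0.45, -0.49 and -0.73, above the untreated arrays by 0.54, which is below 1.5-fold. Of 12 tested genes of mitochondrial iron-sulfur and heme synthesis, 1 was higher and 2 lower at 4 hr after KBrO3 (against 13.8% and 15.5% of all) and 1 higher and 1 lower at 24 hr (against 7.09% and 10.7%). After co-exposure, 2 were higher and 5 lower at 4 hr (against 15.3% and 18% of all), and 3 higher (Alas1, Glrx5 and Slc25a37, against 9.49%) and 0 lower (against 12%) at 24 hr.

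Abcd3, which brings fatty acids into peroxisomes, read between 3.42 and 3.48 untreated and between 2.61 and 2.67 at 4 hr after KBrO3, a change of -0.80 ± 0.05. The other 2 tested Abcd3 probes differed by -0.74 ± 0.10 and -0.89 ± 0.19, neither altered, and at 4 hr after co-exposure by -0.22 and -0.36 where the brightest fell by 0.61. Of 11 tested genes of peroxisome assembly and beta-oxidation, 3 were lower at 4 hr after KBrO3 (Ehhadh, Hsd17b4 and Scp2, against 15.5% of all) and 4 lower and 1 higher after co-exposure (against 18% and 15.3%).

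In lysosomes, Abcb9 is a peptide transporter and Abcd4 serves the release of cobalamin. Abcb9 read 0.60, 0.55 and 0.47 on the untreated arrays, 0.62, 0.61 and 0.55 at 4 hr after KBrO3 and -0.24, -0.18 and -0.12 at 4 hr after co-exposure. At 24 hr it read -0.74, -0.67 and -0.52 after KBrO3 and -0.87, -0.67 and -1.21 after co-exposure. KBrO3 arrays at 4 hr thus overlapped the untreated ones, and all other treated arrays of the first set were lower. The 24-hr changes were -1.18 ± 0.11 and -1.45 ± 0.11, both altered. Abcd4 read between 2.00 and 2.04 untreated and between 1.25 and 1.27 at 4 hr after KBrO3, a change of -0.75 ± 0.04 (adjusted p = 3.72e-09). After co-exposure at 4 hr it changed by -0.41, below 1.5-fold. Tap1, an ABC peptide transporter of antigen presentation that is named by another symbol and is not among the 49, was higher at 24 hr after co-exposure (0.77).

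Over time after KBrO3 alone, from 4 to 24 hr, 8 of 31 genes were altered (25.8%, against 27.5% of all), 4 higher (against 12.7%) and 4 lower (against 14.8%). Abca1, Abcb10 and Abcb8 rose by 1.92, 0.95 and 0.95, and Abcc1, Abcb9, Abcf2 and Abcf1 changed by -1.31, -1.24, -0.89 and -0.62. From 4 to 24 hr after co-exposure, 8 were altered (25.8%, against 31.6% of all), 5 higher (against 15.8%) and 3 lower (against 15.7%), with Abcb8, Abca2, Abca7, Abcb6 and Abcd4 higher by 1.42, 1.17, 0.94, 0.87 and 0.63 and Abcg4, Abcc1 and Abce1 changed by -1.11, -1.06 and -0.96. Both shares are close to or below that of all genes. Leaving out 1 array at a time gave 3 to 5 for KBrO3. Most of these calls were lost with normexp (1 for KBrO3 and 2 for co-exposure) and with only the groups compared (0 and 1). Over the same interval 10 of 12 fibroblast markers after KBrO3 and 9 after co-exposure were lower. Krt19 was lower both times and the leukocyte marker Cd68 after KBrO3, and the part of these markers was not tested. The second probe of Abcb10 differed by -0.46 where the brighter one rose by 0.95.

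Adding BPA to KBrO3 altered a share of the transporters that was near or below that of all genes. At 4 hr, 0 of 31 genes were altered between co-exposure and KBrO3 alone (against 5.49% of all), while 15 had an unadjusted p below 0.05 in limma (against 63.6%) and 2 passed Benjamini-Hochberg adjustment at 1.5-fold (against 21%), Abce1 (0.61) and Abcb9 (-0.77). At 24 hr, 2 of 31 were altered (6.45%, against 6.67% of all). These were Abcc4, which was higher with BPA, and Abcb10, which was lower.

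The 24-hr difference of Abcc4 was 0.73 ± 0.05 (1.66-fold, adjusted p = 2.11e-07). It was -0.02 at 4 hr, and the difference between the times was 0.74 ± 0.07 (adjusted p = 5.93e-06 in limma), 1 of 2 members altered in that comparison (against 4.48% of all). Neither of the 2, Abcc4 and Abcb10, was altered there with the slide as a random block, with the replicate number as a block, with normexp, with only the groups compared or with all 24 arrays, and leaving out 1 array at a time left 0 to 4 members altered. A second Abcc4 probe was also higher with added BPA at 24 hr, by 0.54 ± 0.08 (adjusted p = 0.000106), but by 0.41 at 4 hr as well, so that its difference between the times was 0.13 ± 0.11 (adjusted p = 0.318). That probe rose by 1.43, 1.84, 1.94 and 2.48 from untreated cells in the 4 comparisons, more than the brighter probe. On the slide that held 2 arrays of each 24-hr group, the difference of the brighter probe was 0.79.

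Abcb10 is a transporter of the mitochondrial inner membrane linked to heme synthesis. It read -0.73, -0.72 and -0.68 on the untreated arrays, -0.66, -0.65 and -0.63 at 4 hr after KBrO3 and -0.67, -0.71 and -0.67 at 4 hr after co-exposure. At 24 hr it read 0.38, 0.32 and 0.21 after KBrO3 and -0.84, -0.95 and -0.66 after co-exposure. The KBrO3 arrays at 24 hr stood above all other arrays of the set. The rise after KBrO3 was 1.01 ± 0.07 (2.02-fold, adjusted p = 4.75e-08), the difference of co-exposure from KBrO3 at 24 hr was -1.12 ± 0.07 (2.18-fold lower, adjusted p = 7.18e-08), and its change from 4 to 24 hr was -1.09 ± 0.09 (adjusted p = 3.37e-06).

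The second Abcb10 probe, designed on a RIKEN cDNA, read -0.98, -0.97 and -0.89 untreated, -0.16, -0.13 and -0.14 at 4 hr after KBrO3, -0.61, -0.49 and -0.66 at 4 hr after co-exposure, -0.63, -0.71 and -0.47 at 24 hr after KBrO3 and -1.28, -1.32 and -1.45 at 24 hr after co-exposure. It too was lower with BPA at 24 hr, by -0.75 ± 0.07 (altered, adjusted p = 2.53e-06), but its highest group was KBrO3 at 4 hr and its difference from untreated cells at 24 hr after KBrO3 was 0.34. Both calls at 24 hr, of Abcc4 and Abcb10, were lost when only the 2 groups compared were fitted or when the background was corrected by normexp, and 1 of the 2 was lost when all 24 arrays were fitted together.

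The first 30 bases of these 4 probes are given because the 2 probes of each gene differ in their time course. In mm7 they lie at chr14:112885129-112885188 and chr14:112886540-112886599 for Abcc4 and chr8:122540242-122540301 and chr8:122569357-122569416 for Abcb10, all on the minus strand. The brighter probe of each gene comes first, and no bases are in capitals. The upstream window of Abcc4 in GRCm38.p6, chr14:118706220-118706439 on the minus strand, is shown beside them. Its capitals mark CACGTG and the reverse of TGACNNNGC.
Abcc4 A_52_P630867: gccagtaaatgatgtagattcgtcctttat
Abcc4 A_51_P232597: tatttgaaacagcattgtgaccaccacgac
Abcb10 A_51_P144696: tgacgatttcaacagtcatgaaataaacca
Abcb10 A_52_P571431: ccatctgagcctattactagaatatttggt
Abcc4 upstream: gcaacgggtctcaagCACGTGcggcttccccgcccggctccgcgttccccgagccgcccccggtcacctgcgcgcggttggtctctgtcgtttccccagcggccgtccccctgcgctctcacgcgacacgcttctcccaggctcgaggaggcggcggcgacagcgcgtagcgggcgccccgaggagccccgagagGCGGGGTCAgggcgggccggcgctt

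TGACNNNGC, the core letters of an antioxidant response element, was found on either strand in 12.4% of all promoter windows and in 5 of 37 members, Abca8b, Abcb1a, Abcc2, Abcc4 and Abcc10. The looser TGANNNNGC, which includes it, was in 41.3% of all windows and in 14 of 37 members. TGATGNAA was in 3.97% of all windows and in 1 member, Abca13. Here too the members are counted as genes and the percentages as windows.

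**Figure D4:**
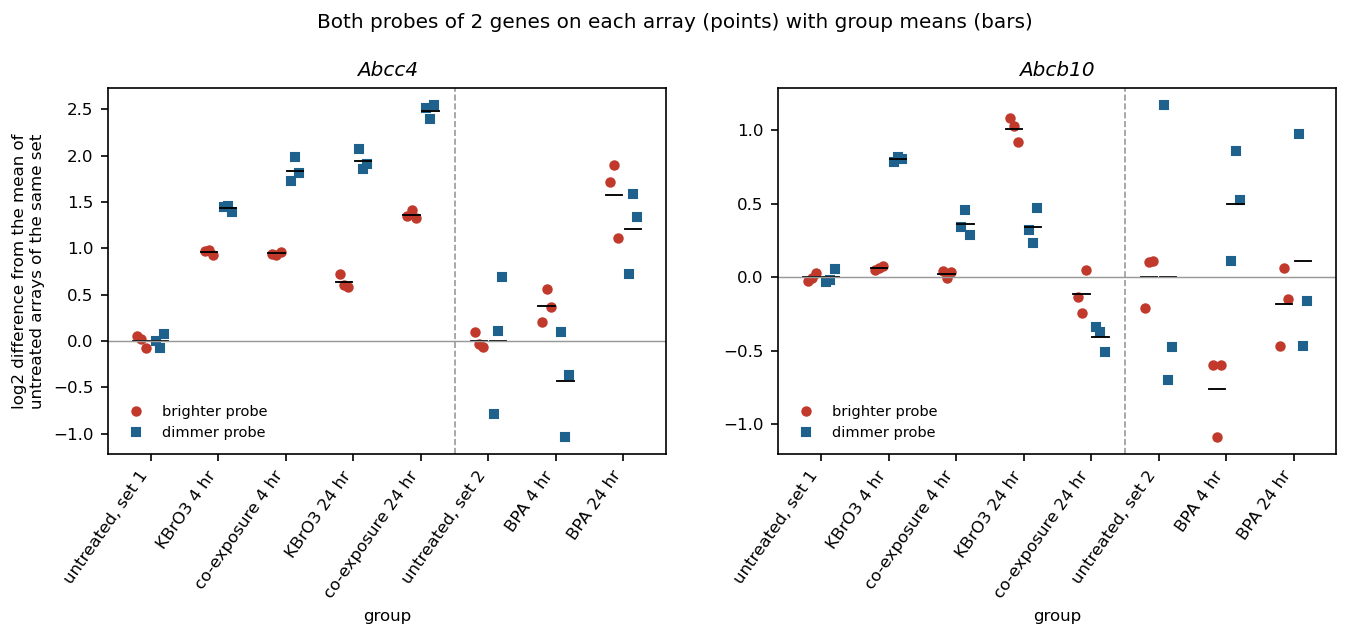
Log2 difference of each array (points) from the mean untreated array of its set (vertical axis) by group (horizontal axis), for the brighter (circles) and dimmer (squares) probe of Abcc4 (left) and Abcb10 (right), with bars for the means of 3 arrays and a dashed line between the 2 sets. Both probes of Abcc4 are higher and both of Abcb10 lower at 24 hr after co-exposure than after KBrO3, whereas at 4 hr the brighter probe of each gene differs little between the treatments and the dimmer probe of Abcc4 is higher, and that of Abcb10 lower, after co-exposure.

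Of the 9 glutathione genes of the partner list that were higher with added BPA at 24 hr, against 0 lower of 17 tested, Slc7a11 rose by 1.67 and Chac1, which degrades glutathione, by 1.75. The median difference of the 17 was 0.70, and 6.67% of all genes were altered in either direction. In the same comparison the fibroblast markers Lum and Pdgfrb (by -0.62 and -0.61) and the epithelial marker Krt19 (by -1.52) were lower. The fibroblast marker Thy1, above background on 1 of 3 arrays after KBrO3 and 0 of 3 after co-exposure, was called lower with no fold given. The part of these markers was not tested. At 4 hr, 2 of the 17 were higher with added BPA (Chac1 and Slc3a2) and 2 lower (Gclm and Gsta1), against 5.49% of all in either direction, with a median difference of -0.22.

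BPA alone altered 0 of 39 tested genes at 4 hr (against 0.0886% of all) and 0 of 39 at 24 hr (against 0.0233% of all). At an unadjusted p below 0.05 in limma there were 12 and 6 (against 18.8% and 19.3% of all). With Benjamini-Hochberg adjustment at 1.5-fold there was 1 at 4 hr (Abcb11, against 4.22% of all) and there were 2 at 24 hr (Abcc4 and Abcb6, against 3.66% of all). Between the times, 0 of 39 were altered (against 0.042% of all), 10 had an unadjusted p below 0.05 (against 20.8%) and 3 passed the looser rule (Abcb11, Abcb6 and Abcc4, against 3.98% of all).

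Abcc4 read 0.79, 0.67 and 0.63 on the untreated arrays of the second set, 0.90, 1.26 and 1.07 at 4 hr and 2.41, 2.60 and 1.81 at 24 hr of BPA alone. The 24-hr arrays lay above all others of the set, with a difference from untreated cells of 1.57 ± 0.23 (2.98-fold, adjusted p = 0.010). The second probe differed by 1.21 ± 0.42 (adjusted p = 0.170).

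Abcb6, a porphyrin transporter, read -0.78, -0.88 and -1.08 untreated, -0.98, -0.78 and -0.93 at 4 hr and 0.08, 0.22 and 0.28 at 24 hr of BPA alone, where it was 1.11 ± 0.18 higher (2.15-fold, adjusted p = 0.0127). In the first set it read -0.27, -0.36 and -0.24 untreated and 0.76, 0.78 and 0.54 at 24 hr after co-exposure, a rise of 0.98 ± 0.06 (adjusted p = 2.06e-08). After KBrO3 alone at 24 hr it read 0.18, 0.17 and 0.23, so co-exposure was higher by 0.50, a 1.42-fold difference that was not called.

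Abcb11, the bile salt export pump, read -3.18, -3.61 and -3.14 untreated and -2.45, -1.97 and -2.35 at 4 hr of BPA alone, a difference of 1.06 ± 0.23 (adjusted p = 0.0358). The 24-hr arrays read -4.02, -3.76 and -3.53, which overlaps the lower end of the untreated range.

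What BPA did alone and what it did on top of KBrO3 were measured on separate arrays and were set side by side with no test. At 4 hr they had the same sign in 21 of 31 genes (67.7%, against 56.5% of 18338 genes measured in both sets), and at 24 hr in 20 of 31 (64.5%, against 68.7%). Beyond 1.5-fold in both, Abcc4 was higher at 24 hr and Abcb9 lower at 4 hr.

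**Figure D5:**
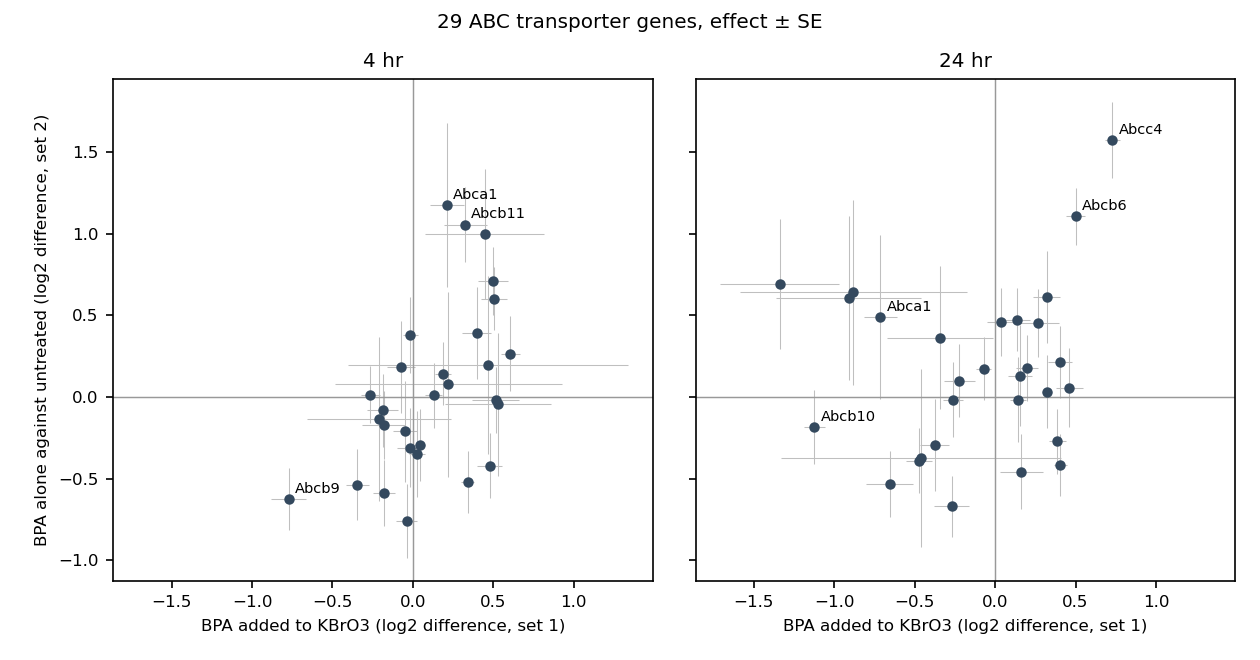
Log2 difference made by adding BPA to KBrO3 (horizontal axis, first set) and by BPA alone (vertical axis, second set) at 4 hr (left) and 24 hr (right), with 1 point and SE bars for each of 29 ABC transporter genes and names for genes above background in all groups that lie farthest out. At 24 hr Abcc4 lies at 0.73 and 1.57, and Abcb10 at -1.12 and -0.18.

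Altered gene and comparison pairs were set against every other tested probe of the same gene, which gave 48 combinations in 12 genes. A pair was counted once for each such probe. The other probe had the same sign in 47 combinations and was itself altered in 29, and the exception was Abcb10 from 4 to 24 hr after KBrO3.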

How the data were processed

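Total RNA from Ku70-/- cells was labeled with Cy3 and hybridized to Agilent whole mouse genome arrays, with 3 arrays per group that the study calls biological replicates. The intensity values were deposited by the authors as the output of Feature Extraction, which subtracts background and detrends within an array, and no normalization between arrays was applied. Per the file headers the software version was 9.5.3.1 in the first set and 12.0.0.7 in the second, and its flags for background, saturation and outlier spots (other values, 0 or 1) were deposited too. The deposited series table holds the same intensity values, with 1080432 of 1080432 equal within a relative tolerance of 1e-06.

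The signals were converted to log2, the 75th percentile of each array was subtracted, outlier spots were left out and the spots of a probe were averaged. limma 3.58.1 (lmFit and eBayes, R 4.3.3) was fitted to all groups of a set and to the probes called well above background throughout at least 1 group, and tested on simulated data. Sequences were read with Python 3.11.15 from the scanner files and RefSeq tables. The members, gene lists and roles were chosen with earlier results of these data known. Genes are those of a fixed role list and the altered members with the largest changes. Some members are included in the counts but are not reported here singly. The precision is limited by 3 arrays per group. Alternatives were other normalizations, background corrections, filters, thresholds and sample sets, slide and replicate number as blocks, other probes and left-out arrays. Arrays were not paired by replicate number in the main fits. The residual correlation of arrays with the same number had a mean of -0.029 in the first set (-0.21 to 0.11). In the second set the mean was 0.0020, with a wider range of -0.38 to 0.65.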

Additional observations from a re-analysis of the deposited data

Results flagged for a closer look

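The effect of adding BPA to KBrO3 differed between 24 and 4 hr in 2 members by a test of the difference itself in limma. The difference was 0.74 log2 units for Abcc4 (SE 0.0683, n = 3 arrays per group) and -1.09 for Abcb10 (SE 0.0922). The second probe of each gene gave 0.13 and -0.31, neither called altered. Neither gene was altered in this comparison with the slide as a random block, with the replicate number as a block, with normexp, with only the groups compared or with all 24 arrays. Leaving out 1 array at a time gave 0 to 4 members, with 4 without the third co-exposure array of 24 hr and 0 or 1 without any other. In the same comparison the leukocyte marker Cd68 was altered and higher, and 0 of 12 fibroblast markers were altered. Of 17 tested glutathione genes, 5 were higher and 0 lower, against 4.48% of all genes in either direction. No cause was tested.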

How the results depend on the processing

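Counts of altered members were recomputed with 1 choice changed at a time, in the order KBrO3 at 4 hr, co-exposure at 4 hr, KBrO3 at 24 hr and co-exposure at 24 hr, each against untreated cells, where they were 14, 14, 7 and 7. They were 4, 7, 0 and 3 with normexp background correction, 3, 3, 0 and 0 with only the groups compared in the fit, and 2, 6, 2 and 4 with all 24 arrays in 1 fit. KBrO3 at 4 hr gave 9 with the slide as a fixed block and 9 with the replicate number as a block, co-exposure at 4 hr gave 9 with the slide as a random block, and KBrO3 at 24 hr gave 4 with arrays centred on their medians. Centring moved the median of all genes by 0.32 at 24 hr after co-exposure, 0.15 after KBrO3 and -0.14 at 4 hr after co-exposure, and normexp moved it by -0.32, -0.37 and -0.46 there and by -0.47 at 4 hr after KBrO3. With Benjamini-Hochberg adjustment, KBrO3 and co-exposure at 24 hr gave 11 and 14, BPA alone gave 1 and 2 at 4 and 24 hr and 3 between the times, co-exposure against KBrO3 gave 2 at 4 hr and 5 at 24 hr, co-exposure gave 19 from 4 to 24 hr, and the change of the added BPA effect gave 10. With all 24 arrays, BPA alone gave 2 at 24 hr and 3 between the times. Co-exposure against KBrO3 at 4 hr gave 1 with probes above background on every array.

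Co-exposure against KBrO3 at 24 hr (2 altered) gave 0 with normexp, 0 with only the groups compared and 1 with all 24 arrays. KBrO3 from 4 to 24 hr (8) gave 1 with normexp, 0 with only the groups compared, 2 with all arrays, 4 with the random slide block, 3 with the replicate block and 5 with median centring. Co-exposure from 4 to 24 hr (8) gave 2, 1, 5 and, with the fixed slide block, 2. The change of the added BPA effect (2) gave 0 with normexp, with only the groups compared, with all arrays, with the random slide block and with the replicate block, and 1 with median centring or with no filter on dim probes. The replicate block moved no other count by over 1.5 times.

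Leaving out 1 array at a time gave 9 to 10, 12 to 13, 5 to 6 and 5 to 7 for the 4 comparisons with untreated cells, 2 for co-exposure against KBrO3 at 24 hr, 3 to 5 and 8 for the changes from 4 to 24 hr after KBrO3 and co-exposure, 0 to 4 for the change of the added BPA effect and 0 for BPA alone and for co-exposure against KBrO3 at 4 hr.

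Changes of sign were few among 111 gene and comparison pairs. Under normexp they were Abcg5 (-0.89 at 4 hr after KBrO3 and -0.78 after co-exposure, with 0 of 3 untreated arrays above background), Abcc8 (-0.83) and Abcb11 (-0.70) at 4 hr after co-exposure, and 41 further pairs were no longer past their threshold. Under an error-weighted analysis of variance Abca6 gave 0.22 at 24 hr after KBrO3. The other probe gave -0.46 for Abcb10 from 4 to 24 hr after KBrO3, 0.12 for Abca3 and -0.016 for Abcf3 at 24 hr after co-exposure, 0.31 for Abca5 from 4 to 24 hr after co-exposure and 0.15 for Abca5 in the change of the added BPA effect. The cause was not tested. Dim genes are limited by signal over background, and 3 arrays per group limit all comparisons.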
